A study of Mus musculus with 21 samples.

Results

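The EphB receptors and their ephrin-B ligands were followed through mouse motor neuron differentiation in culture. The members are the 5 EphB receptor genes of the mouse, *Ephb1*, *Ephb2*, *Ephb3*, *Ephb4* and *Ephb6*, and the 3 ephrin-B genes, *Efnb1*, *Efnb2* and *Efnb3*. They were chosen by gene family, so 8 of the 55400 genes in the tables are described here, and all 8 passed the filter on low counts in every comparison. RNA-seq had been done on 21 libraries of cultures from wild-type C57BL/6 mouse embryonic stem cells (mESCs) that were kept on feeder fibroblasts and then grown as embryoid bodies. Retinoic acid and the Smoothened agonist SAG were given from day 2, and the Notch pathway inhibitor DAPT from day 4. At day 5 the medium was changed to one with DAPT but without retinoic acid and SAG. Stage and this change of medium cannot be told apart between day 5 and day 6. In the paper this protocol with DAPT directs cells to the hypaxial motor column, which serves body wall muscles and not the limb. The untreated groups were D4 (motor neuron progenitors, pMN), D4H8 (8 hours later, proneural motor neurons, pnMN), D5 (newborn motor neurons, nbMN) and D6 (maturing motor neurons, mMN). The D4 cultures were harvested before DAPT and the later groups after it. The D4H8_GSKJ4, D5_GSKJ4 and D6_GSKJ4 groups had also received GSKJ4, an inhibitor of the H3K27 demethylases Kdm6a and Kdm6b, for the last day before harvest. Each group had 3 biological replicates of the whole culture, with no sorting, and came from a single mESC background. Where a transcript differs between such cultures, fewer cells of a type and less RNA per cell cannot be told apart.

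EphB receptors are receptor tyrosine kinases at the cell surface, and ephrin-B ligands are transmembrane proteins on neighbouring cells. Contact between them signals both ways, forward through the kinase of the receptor and in reverse through the cytoplasmic tail and the PDZ-binding end of the ephrin, and it often ends in repulsion of a growth cone or sorting of cells. In the spinal cord, motor axons of the medial lateral motor column carry EphB receptors, are repelled by ephrin-B in the dorsal limb and take the ventral path, and EphB and ephrin-B proteins also act at synapses. *Ephb6* lacks an active kinase. *Ephb4* and *Efnb2* are best known as the venous and arterial pair of blood vessels.

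Counts on genes ran from 14982115 to 34383842 per library (median 16238435), and the deepest library was D4H8 replicate 1. Summed FPKM (fragments per kilobase of exon, scaled to library size) of 8 motor neuron markers ran from 7.71 to 19.6 at D4 and from 443 to 512 at D6. Those of 5 general neuronal markers ran from 31.0 to 63.6 at D4 and from 1760 to 2043 at D6. Pluripotent cell markers were still present, with sums of 121 to 285 FPKM at D4 and 11.3 to 90.6 at D6. The 6 endothelial markers summed to between 1.41 and 5.45 FPKM in the 21 libraries, and the 4 markers of neural crest and the Schwann lineage to at most 1.25. The 6 feeder fibroblast markers summed to 3.70 to 26.0 FPKM. The 4 proneural markers summed to 26.8 to 37.1 FPKM at D4, 148 to 246 at D4H8 and 8.64 to 11.7 at D6. The 4 motor neuron progenitor markers summed to 80.7 to 129 FPKM at D4, 169 to 262 at D4H8 and 127 to 242 at D6. From D4 to D6 mean *Olig2* went from 47.5 to 1.24 FPKM and *Olig1* also fell, while *Nkx6-1* went from 27.2 to 143 and *Nkx6-2* also rose. The labels were thus met by proneural, neuronal and motor neuron markers, but the motor neuron progenitor sum did not set D4 apart. Pluripotent transcripts stood alongside.

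All 8 members were transcribed. At D4 the order of mean FPKM was *Ephb4* (13.8 ± 2.58, SD, n = 3), *Efnb3* (10.4 ± 0.549), *Efnb2* (10.1 ± 1.01), *Ephb2* (7.79 ± 1.71), *Efnb1* (7.14 ± 0.991), *Ephb3* (4.66 ± 1.16), *Ephb6* (2.1 ± 0.454) and *Ephb1* (0.423 ± 0.0802). Libraries of neighbours in this order overlapped from *Efnb3* down to *Efnb1*, and the other neighbours lay apart. At D6 the order had become *Ephb2* (17.8 ± 2.56), *Efnb3* (15.2 ± 2.11), *Efnb2* (11 ± 1.05), *Efnb1* (10.4 ± 0.784), *Ephb6* (8.61 ± 0.420), *Ephb1* (6.30 ± 0.816), *Ephb4* (4.90 ± 1.71) and *Ephb3* (4.44 ± 0.0503). There *Ephb2* overlapped *Efnb3*, *Efnb2* overlapped *Efnb1*, and the last 3 formed an overlapping run. *Ephb4* had thus gone from the highest member to the second lowest, while *Ephb1* and *Ephb6* had left the bottom of the order.

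**Figure D1:**
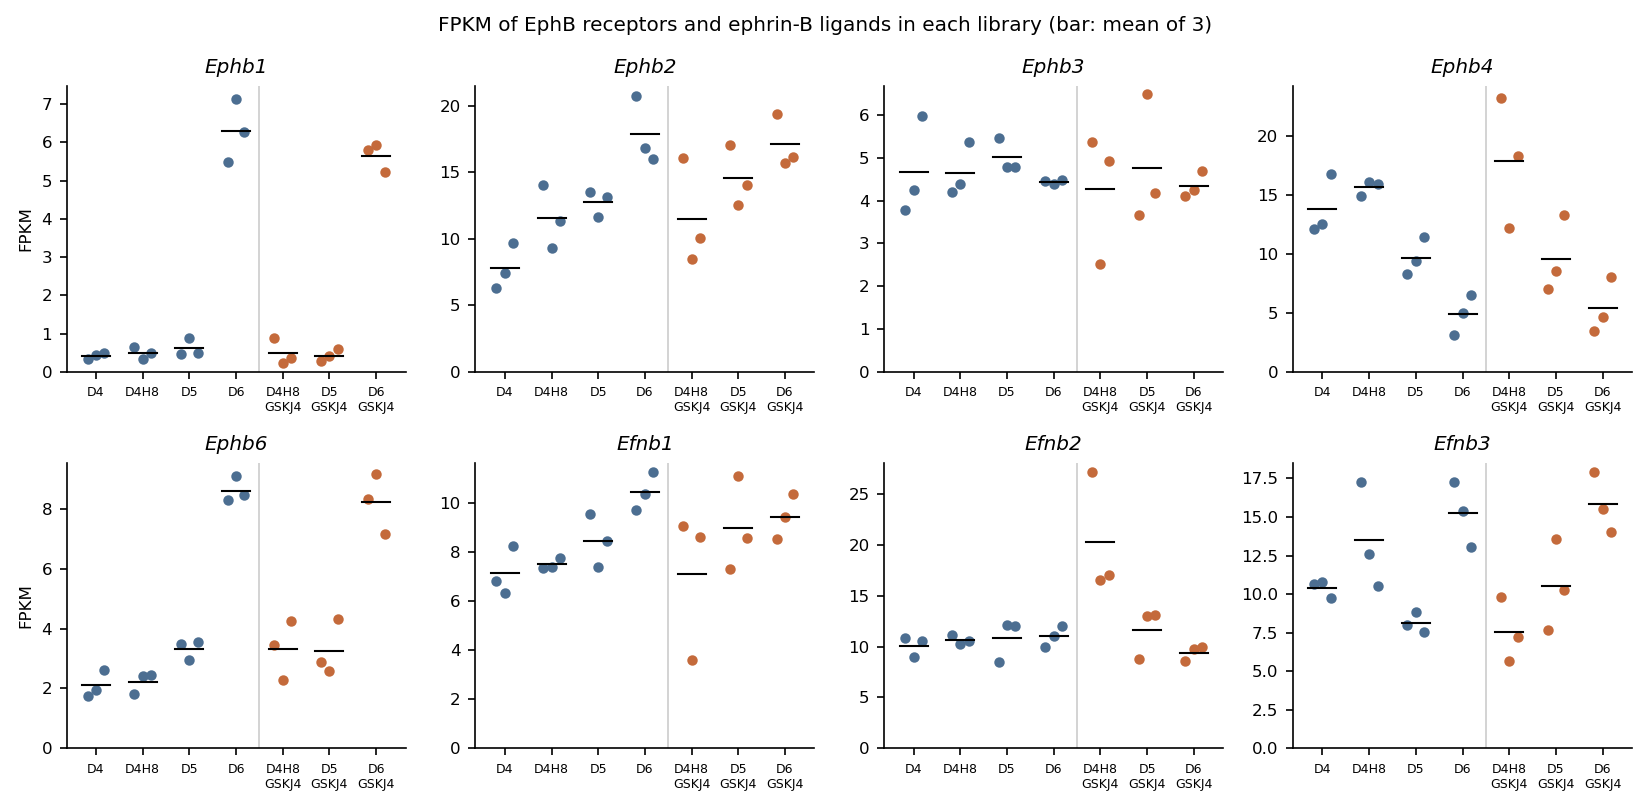
Deposited FPKM (vertical axis, from 0) of each member in the 21 libraries, by group along the horizontal axis. Blue points are untreated and orange points GSKJ4-treated libraries, in replicate order from left to right, and black bars are means of 3. *Ephb1* sits at 0.23 to 0.89 FPKM until D6 and at 5.23 to 7.13 there, *Ephb4* falls to 3.13 to 8.08 at D6, and *Efnb2* reaches 16.55 to 27.16 in the treated D4H8 libraries.

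The receptors were taken first. *Ephb1* (ENSMUSG00000032537, chr9:101922128-102354693, minus strand, GRCm38) was nearly silent and then came on at D6. Its replicates 1, 2 and 3 held 0.34, 0.43 and 0.50 FPKM at D4, 0.64, 0.33 and 0.50 at D4H8, 0.46, 0.88 and 0.49 at D5, and 5.50, 7.13 and 6.26 at D6. The 3 D6 libraries lay far above all the earlier ones, which overlapped one another. The mean rose 10.3-fold from D5 to D6 and the log2 fold change was 3.48 (SE 0.28, adjusted p = 1.64e-06, edgeR quasi-likelihood test with Benjamini-Hochberg adjustment, as for all adjusted p here). Depth before D6 was small, 38 to 155 counts per untreated library, against 629 to 795 at D6.

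*Ephb6* (ENSMUSG00000029869, chr6:41605482-41620509, plus strand), the kinase-inactive receptor, rose in steps. It went from 1.74, 1.95 and 2.61 FPKM at D4 and 1.80, 2.41 and 2.46 at D4H8 to 3.49, 2.95 and 3.56 at D5 and 8.30, 9.09 and 8.45 at D6. The D5 libraries all lay above the D4H8 libraries and the D6 libraries above the D5 ones. The step to D5 was 0.60 on the log2 scale (SE 0.17, adjusted p = 0.0184) and the step to D6 was 1.48 (SE 0.17, adjusted p = 2.70e-05). The call at the first of these steps was lost without D4H8 replicate 1, D5 replicate 1 or D5 replicate 3 (adjusted p of 0.0836, 0.0567 and 0.0846), with no filter and in 1 fit over all 21 libraries (0.0581 and 0.0782), and its 13 alternatives ran from 0.00734 to 0.0846.

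*Ephb2* (ENSMUSG00000028664, chr4:136647539-136835988, minus strand), the receptor with the most transcript in maturing cultures, climbed more evenly. Its libraries held 6.29, 7.44 and 9.65 FPKM at D4, 14.07, 9.28 and 11.30 at D4H8, 13.53, 11.64 and 13.14 at D5, and 20.76, 16.80 and 15.96 at D6. Neighbouring groups overlapped until D5, the lowest D6 library was above the highest D5 library, and the mean was 2.29-fold higher at D6 than at D4. The step from D4 to D4H8 was 0.53 (SE 0.18, adjusted p = 0.132) and did not pass, while the step from D5 to D6 was 0.60 (SE 0.18, adjusted p = 0.0190). The latter was lost without D5 replicate 2, D5 replicate 3 or D6 replicate 1 (adjusted p of 0.0903, 0.0596 and 0.0938) and in the 21-library fit (0.0760, range over 13 alternatives 0.000743 to 0.0938).

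*Ephb4* (ENSMUSG00000029710, chr5:137350109-137378669, plus strand) was the one member that fell from D4 to D6. It held 12.10, 12.52 and 16.77 FPKM at D4, 14.94, 16.10 and 15.90 at D4H8, 8.28, 9.37 and 11.41 at D5, and 3.13, 5.02 and 6.54 at D6. Each of the last 2 steps separated the groups completely. *Ephb4* fell by 0.69 on the log2 scale from D4H8 to D5 (SE 0.19, adjusted p = 0.0160) and fell by 0.88 from D5 to D6 (SE 0.20, adjusted p = 0.00372). Without D5 replicate 1 the first of these steps had an adjusted p of 0.0648, and in the 21-library fit 0.0738 (range over 13 alternatives 0.000264 to 0.0738). At D6 the summed FPKM of the 4 neural progenitor markers was 28.7, 46.7 and 52.1 in replicates 1, 2 and 3, in the same order as *Ephb4*, and over the groups the sum went from 91.0 to 130 at D4 to 28.7 to 52.1 at D6. Floor plate (ventral midline) sums stood in the same D6 order, at 55.8, 80.7 and 87.0 FPKM. So did feeder fibroblast sums (11.5, 18.5 and 25.8) and endothelial sums (1.60, 3.19 and 4.25). Motor neuron sums (512, 496 and 443) and general neuronal sums (2043, 1844 and 1760) stood in the reverse D6 order. The remaining marker lists stood in other orders. Pluripotent cell markers were also lowest in D6 replicate 1, at 11.3 FPKM against 90.6 and 81.0. The part of any of these in the *Ephb4* values was not tested.

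*Ephb3* (ENSMUSG00000005958, chr16:21204755-21223305, plus strand) stayed within a narrow band. Its 12 untreated libraries ran from 3.77 to 5.98 FPKM, with group means of 4.66, 4.65, 5.02 and 4.44 in stage order. None of its steps passed the test, and the log2 difference between D6 and D4 was 0.01 (SE 0.15, adjusted p = 0.964), with a sign that turned to -0.15 under upper-quartile scaling.

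RefSeq promoter windows (250 bases before to 50 after the transcript start, GRCm38.p6) were found for 7 of the 8 members, and not for *Efnb3*. They are printed for the pair that rose together at D6, for the receptor that fell, and for the ligand that later showed the largest rise with GSKJ4, so that their composition can be set side by side. The windows lie at chr9:102354644-102354943 for *Ephb1* (minus strand), chr6:41605261-41605560 for *Ephb6* (plus), chr5:137349859-137350158 for *Ephb4* (plus) and chr8:8661193-8661492 for *Efnb2* (minus). All are written 5′ to 3′ on the strand of the gene, and capitals mark matches on either strand to the E-box CANNTG, the CCAAT box (CCAAT or ATTGG), the GC box (GGGCGG or CCGCCC) and the TATA-like TATAAA or TTTATA.
Ephb1: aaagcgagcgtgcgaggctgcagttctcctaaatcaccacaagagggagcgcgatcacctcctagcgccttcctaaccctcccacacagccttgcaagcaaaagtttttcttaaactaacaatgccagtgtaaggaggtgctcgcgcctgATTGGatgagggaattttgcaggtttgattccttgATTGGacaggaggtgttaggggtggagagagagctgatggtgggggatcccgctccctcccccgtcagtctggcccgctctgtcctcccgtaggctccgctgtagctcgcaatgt
Ephb6: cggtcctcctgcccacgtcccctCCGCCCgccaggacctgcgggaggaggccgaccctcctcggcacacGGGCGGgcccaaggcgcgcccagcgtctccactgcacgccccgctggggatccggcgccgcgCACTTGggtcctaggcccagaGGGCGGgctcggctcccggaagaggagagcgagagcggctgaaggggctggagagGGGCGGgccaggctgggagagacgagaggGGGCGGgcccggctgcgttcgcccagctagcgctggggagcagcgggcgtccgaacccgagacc
Ephb4: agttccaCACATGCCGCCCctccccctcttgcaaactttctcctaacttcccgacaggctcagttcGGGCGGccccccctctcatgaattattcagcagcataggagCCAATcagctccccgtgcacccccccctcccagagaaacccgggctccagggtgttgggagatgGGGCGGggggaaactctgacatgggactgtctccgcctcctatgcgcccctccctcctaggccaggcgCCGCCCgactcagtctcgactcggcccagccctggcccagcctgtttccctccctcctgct
Efnb2: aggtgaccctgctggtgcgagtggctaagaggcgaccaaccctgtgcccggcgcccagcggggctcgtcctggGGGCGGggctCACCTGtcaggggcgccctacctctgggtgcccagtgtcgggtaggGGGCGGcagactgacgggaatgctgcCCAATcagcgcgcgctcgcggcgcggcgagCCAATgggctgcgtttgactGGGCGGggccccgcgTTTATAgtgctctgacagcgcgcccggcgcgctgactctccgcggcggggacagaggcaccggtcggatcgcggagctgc
The windows of the late-rising pair were unlike each other. *Ephb1* held 2 CCAAT boxes, no GC box and no E-box, with a GC content of 55.7%, whereas *Ephb6* held 5 GC boxes, 1 E-box and no CCAAT box at 76.3% GC. *Ephb4* held 4 GC boxes, 1 CCAAT box and 1 E-box, the last overlapping none of the others. *Efnb2* held 3 GC boxes, 2 CCAAT boxes, 1 E-box and a TTTATA match that begins 30 bases before the start. Of 32817 windows in the table, 72.3% held the E-box, 37.4% the CCAAT box, 35.6% the GC box and 13.6% the TATA-like letters. The ratio of observed to expected CpG was 0.603 for *Ephb1*, 0.781 for *Ephb6*, 0.484 for *Ephb4* and 0.904 for *Efnb2*, against a median of 0.383, and 87.7% of windows had a lower ratio than *Efnb2*. The 2 E-boxes often tied to proneural factors, CAGCTG and CAGATG or CATCTG (16.3% and 17.2% of windows), were in none of these 4 windows, and of the 7 members only *Ephb3* held CAGCTG. These are matches of letters, not measured sites.

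Among the ligands, *Efnb1* (ENSMUSG00000031217, chrX:99136130-99148991, plus strand), a ligand best known from craniofacial and skeletal patterning, rose slowly. It held 6.81, 6.35 and 8.25 FPKM at D4, 7.35, 7.41 and 7.75 at D4H8, 9.54, 7.41 and 8.45 at D5, and 9.71, 10.35 and 11.27 at D6. Only the D6 libraries stood apart from those of the stage before. The D6 step was 0.41 on the log2 scale (SE 0.14, adjusted p = 0.0329) and rested on the full set, since 5 of 6 fits without a D5 or D6 library gave an adjusted p of 0.0610 to 0.157 (D5 replicates 2 and 3 and each D6 replicate). Upper-quartile scaling, no filter and the 21-library fit also lost it (range over 13 alternatives 0.0117 to 0.250), and the net change from D4 to D6, 0.61 (SE 0.14, adjusted p = 0.00143), was kept in all 13.

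*Efnb3* (ENSMUSG00000003934, chr11:69554092-69560205, minus strand), the midline ligand that keeps corticospinal axons from recrossing, was the only member that moved in both directions. It held 10.63, 10.79 and 9.77 FPKM at D4, 17.29, 12.62 and 10.55 at D4H8, 8.0, 8.83 and 7.57 at D5, and 17.26, 15.41 and 13.06 at D6. The D4H8 libraries were widely spread and overlapped D4, all 3 D5 libraries lay below them, and all 3 D6 libraries lay above D5 and D4. *Efnb3* fell by 0.74 on the log2 scale from D4H8 to D5 (SE 0.19, adjusted p = 0.0107) and rose by 1.02 from D5 to D6 (SE 0.19, adjusted p = 0.00115). The fall was lost without D4H8 replicate 1 (adjusted p = 0.0626, range over 13 alternatives 0.000203 to 0.0626). The net rise from D4 to D6, 0.62 (SE 0.19, adjusted p = 0.0113), was lost without D4 replicate 3 or D6 replicate 1 (adjusted p of 0.0641 and 0.0541, range 0.00138 to 0.0641).

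*Efnb2* (ENSMUSG00000001300, chr8:8617434-8661242, minus strand) hardly moved in untreated cultures. Its 12 libraries ran from 8.49 to 12.10 FPKM, with means of 10.1, 10.7, 10.9 and 11 in stage order, and every pair of neighbouring groups overlapped. No step passed the test, and the net log2 change was 0.18 (SE 0.14, adjusted p = 0.289).

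Counted together, 0 of the 8 members passed at the step from D4 to D4H8, where 4.06% of all genes tested rose and 0.32% fell. The count at an unadjusted p under 0.05 was 1 (*Ephb2*), against 2894 of 17519 genes, and DESeq2 also called 0. From D4H8 to D5, *Ephb6* rose and *Ephb4* and *Efnb3* fell, against 17.2% and 10.5% of all genes. From D5 to D6, 5 members rose (*Ephb1*, *Ephb2*, *Ephb6*, *Efnb1* and *Efnb3*) and *Ephb4* fell, against 19.2% and 15.1%. Between D4 and D6 the same 5 rose and *Ephb4* fell, against 32.9% and 31% of all genes, and the median log2 change was 0.62 over the members and -0.04 over all genes. The net log2 changes were 3.96 for *Ephb1* (SE 0.29, adjusted p = 4.06e-08), 2.11 for *Ephb6* (SE 0.17, adjusted p = 1.68e-07), 1.28 for *Ephb2* (SE 0.18, adjusted p = 2.95e-05) and -1.43 for *Ephb4* (SE 0.20, adjusted p = 2.33e-05). Neuronal markers rose over the same steps. The 4 floor plate markers, from the ventral midline, summed to 27.9 to 36.3 FPKM at D4, 39.1 to 47.0 at D4H8, 37.3 to 42.7 at D5 and 55.8 to 87.0 at D6, and 3 of them rose from D5 to D6. The part of either in the members' values, *Efnb3* included, was not tested.

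**Figure D2:**
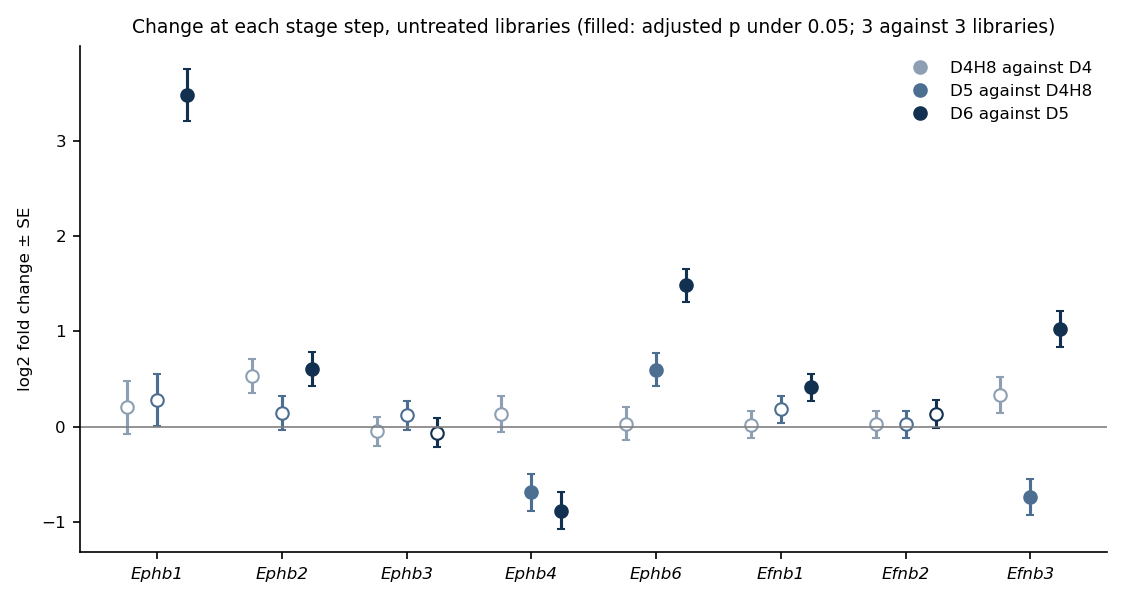
Log2 fold change of each member (vertical axis, with SE) at the 3 steps between untreated stages, from the fit on 12 libraries. Filled circles passed an adjusted p of 0.05. No circle is filled for D4H8 against D4, 3 are filled for D5 against D4H8, and 6 are filled for D6 against D5, led by *Ephb1* at 3.48.

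The make-up of the receptor class shifted along with its total. The summed FPKM of the 5 receptors was 28.8 ± 5.95 (SD, n = 3) at D4 and 42.1 ± 0.368 at D6. *Ephb4* made up 48.1% ± 1.59 of it at D4 and 11.6% ± 4.13 at D6, whereas *Ephb2* went from 27.0% ± 1.03 to 42.4% ± 6.00, *Ephb6* from 7.29% ± 0.0955 to 20.5% ± 0.880, and *Ephb1* from 1.48% ± 0.123 to 14.96% ± 1.88. The libraries of D4 and D6 did not overlap in any of these 4 shares. *Ephb3* went from 16.1% ± 0.659 to 10.6% ± 0.211. The 3 ligands summed to 27.6 ± 1.35 FPKM at D4 and 36.7 ± 0.289 at D6, and their shares moved less than those of the 4 receptors other than *Ephb3*. *Efnb2* held 36.5% ± 2.01 at D4 and 30.0% ± 3.08 at D6, and *Efnb3* 37.7% ± 3.58 and 41.5% ± 5.43. Shares within a class are bound to one another and were not tested.

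**Figure D3:**
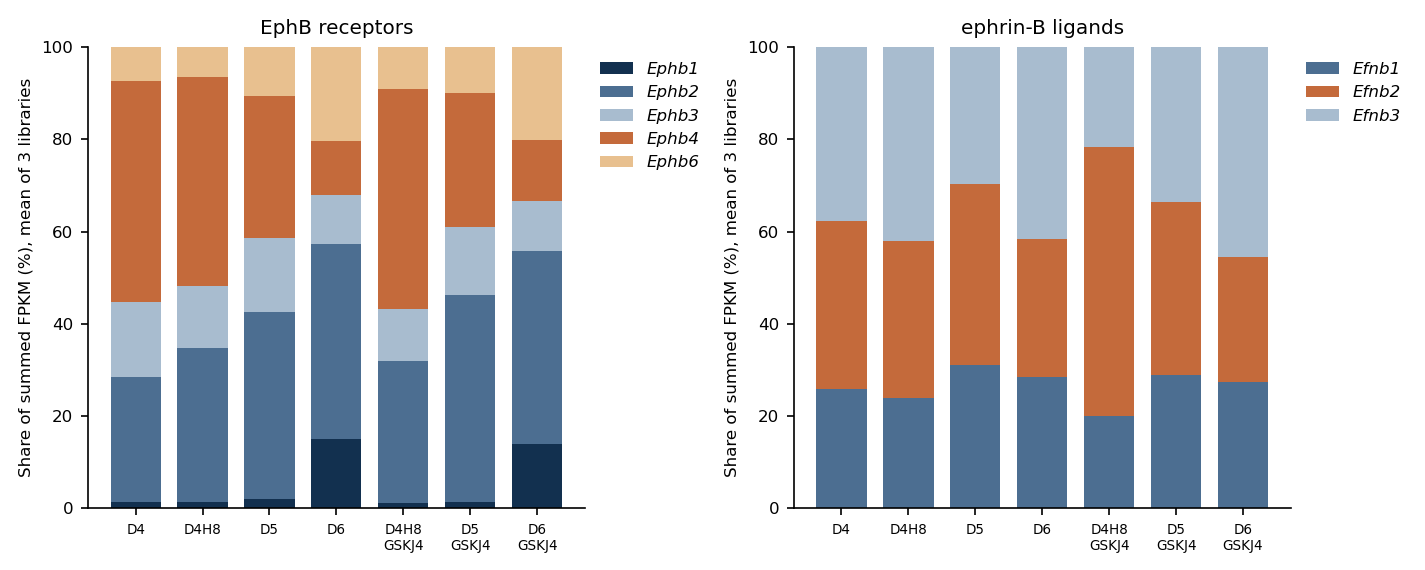
Share of the summed FPKM (percent, mean of 3 libraries) of the 5 EphB receptors on the left and the 3 ephrin-B ligands on the right, by group. *Ephb4* shrinks from 48.1% to 11.6% between D4 and D6, and *Efnb2* widens to 58.3% in the treated D4H8 group.

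The wider pathway was read from lists of known partners. Of 25 genes of forward signalling, 14 rose and 7 fell between D4 and D6 (median log2 change 0.44). *Kalrn*, a guanine nucleotide exchange factor that EphB2 recruits in spines, rose by 3.84 (SE 0.23, adjusted p = 6.29e-09), from 0.683 ± 0.162 to 9.25 ± 1.46 FPKM (SD, n = 3). The exchange factor *Vav3* rose by 2.80 and *Limk1*, the kinase of cofilin, by 2.60, while *Sdc2*, a syndecan that EphB2 phosphorylates, fell by 2.08 and the adaptors *Grb7* and *Grb10* fell by 2.07 and 1.81. Of 12 genes of reverse signalling and PDZ partners, 9 rose and 2 fell (median 0.64). *Grip1*, a PDZ scaffold of ephrin-B, rose by 2.32 and *Rgs3*, which links ephrin-B to G proteins, by 2.29, with *Stat3* at 1.47, while the phosphatase *Ptpn13* fell by 1.14 and *Dvl2* fell by 0.63. Of the 9 cleavage genes tested (10 listed), 5 rose and 0 fell (median 0.43). They included *Adam10*, the sheddase of ephrins, at 0.84, and the gamma-secretase subunit *Ncstn* at 0.74. In the related EphA and ephrin-A class, 9 of 14 rose and 2 fell (median 1.39), led by *Epha10* at 5.56, *Epha5* at 4.69 and *Efna3* at 3.03, and *Efna4* fell by 0.87. The shares of all genes for this comparison are the 32.9% and 31% given above. Of that class, *Epha4* and *Efna5* reach into the EphB system, since EphA4 also binds ephrin-B and ephrin-A5 also binds EphB2. *Epha4* had a mean of 2.92 ± 0.742 FPKM at D4, 5.66 ± 1.15 at D4H8, 7.27 ± 1.58 at D5 and 5.14 ± 0.619 at D6, and *Efna5* went from 4.76 ± 1.22 at D4 to 14.7 ± 2.18 at D6 (SD, n = 3). By single steps, the forward list had 1 gene that rose and 0 that fell from D4 to D4H8, 8 and 3 from D4H8 to D5, and 9 and 5 from D5 to D6. The same steps gave 1 and 0, 5 and 1, and 2 and 2 in the reverse list, 1 and 0, 1 and 0, and 3 and 0 in the cleavage list, and 2 and 0, 6 and 1, and 5 and 0 in the EphA class. Over all genes tested, 4.06% rose and 0.32% fell at the first of these steps, 17.2% and 10.5% at the next and 19.2% and 15.1% at the last.

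**Figure D4:**
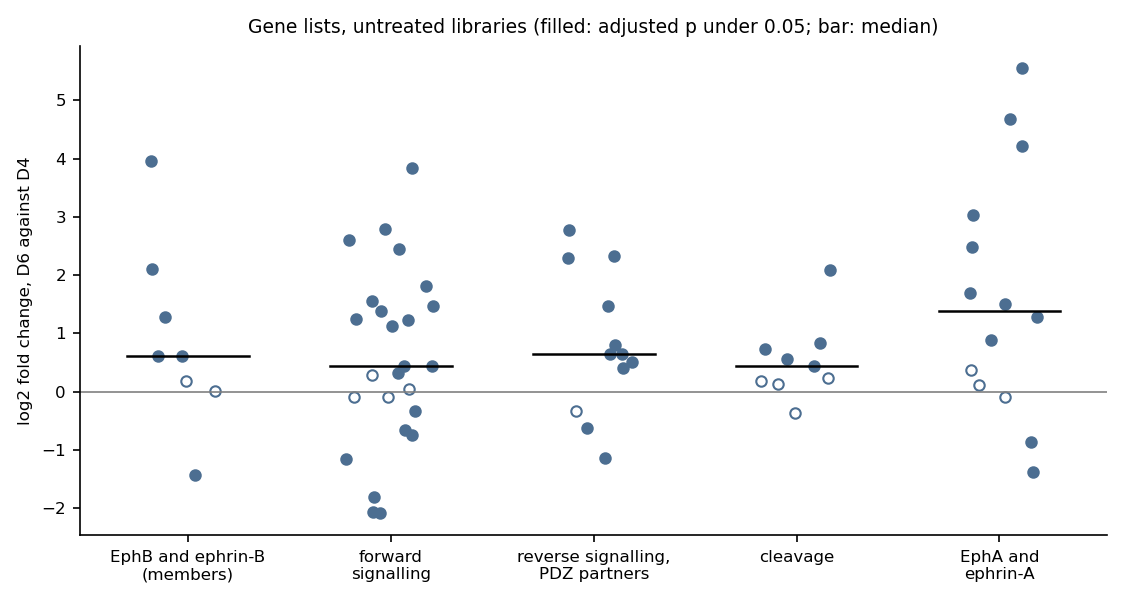
Log2 fold change from D4 to D6 (vertical axis) of each tested gene in the members and in 4 lists of related genes, with medians as bars. Filled circles passed an adjusted p of 0.05. Members run from -1.43 (*Ephb4*) to 3.96 (*Ephb1*), and the EphA and ephrin-A list has the highest median, 1.39.

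GSKJ4-treated and untreated libraries were then compared at each stage. RNA levels alone do not show whether a difference depends on H3K27 demethylation, and the paper proposes an indirect effect of GSKJ4 on non-target genes. At D4H8 the 2 members whose treated and untreated libraries did not overlap were both ligands and went opposite ways. *Efnb2* held 27.16, 16.55 and 17.08 FPKM in treated against 11.18, 10.29 and 10.57 in untreated replicates, a mean of 20.3 ± 5.98 against 10.7 ± 0.455. All 3 treated libraries lay above the untreated ones and above each of the 18 libraries of the other groups. The log2 fold change was 0.88 (SE 0.21, adjusted p = 0.0510), just short of the threshold. *Efnb3* held 9.82, 5.65 and 7.22 FPKM in treated against 17.29, 12.62 and 10.55 in untreated replicates. Here too the groups did not overlap, and the log2 fold change was -0.89 (SE 0.26, adjusted p = 0.0809). The share of all genes whose treated and untreated libraries lie apart was not counted.

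Thus 0 of 8 members passed at D4H8, against 2.11% of all genes that rose and 1.85% that fell. That background rested on all 3 untreated libraries, since the 644 genes called in both directions became 43, 50 and 47 without untreated replicate 1, 2 or 3, of which 2, 3 and 3 rose. The count at an unadjusted p under 0.05 was 2, against 4085 of 16269 genes, a like share. DESeq2, the tool used by the authors, called 1974 of 15456 genes and both ligands, *Efnb2* at an adjusted p of 0.00848 and *Efnb3* at 0.0230. Over 13 alternatives the adjusted p of *Efnb2* ran from 0.00268 to 0.210 and passed in 7, and that of *Efnb3* ran from 0.00814 to 0.321 and passed in 4. Leaving out treated replicate 2 brought *Efnb2* past the threshold (adjusted p = 0.0304). Because of these moves *Efnb2* took 58.3% ± 6.15 of the ligand FPKM in treated and 33.9% ± 2.70 in untreated D4H8 libraries, and *Efnb3* 21.7% ± 0.344 against 42.1% ± 5.88.

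The receptors showed no such separation at D4H8. *Ephb6* came nearest, at 3.45, 2.27 and 4.27 FPKM in treated and 1.80, 2.41 and 2.46 in untreated replicates (log2 fold change 0.54, SE 0.27, adjusted p = 0.252), and the groups overlapped. *Ephb4* held 23.23, 12.22 and 18.28 against 14.94, 16.10 and 15.90, and *Ephb2* 16.06, 8.45 and 10.05 against 14.07, 9.28 and 11.30. *Ephb1*, *Ephb3* and *Efnb1* also overlapped. In FPKM treated replicate 2 was the lowest of its group for all 8 members, but after TMM scaling *Efnb2* was lowest in replicate 3 (107 CPM, depth-scaled counts, against 121 in replicate 2). The spread was wide for *Efnb1*, at 3.60 FPKM in replicate 2 against 8.61 and 9.07 in the other treated libraries.

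At D4H8 the treated and untreated marker sums lay apart for some lists and overlapped for others. The 4 motor neuron progenitor markers summed to 10.6 to 46.5 FPKM in treated and 169 to 262 in untreated libraries, and the 4 proneural markers to 14.8 to 34.3 and 148 to 246. The 8 motor neuron markers summed to 12.6 to 28.9 FPKM in treated and 57.9 to 62.7 in untreated libraries. The 4 neural progenitor markers summed to 49.7 to 84.1 FPKM in treated and 87.3 to 111 in untreated libraries, but 0 of 4 passed the test. The 5 astrocyte and oligodendrocyte markers summed to 6.14 to 7.02 and 7.16 to 10.2 FPKM, and 1 of 4 tested fell, against 1.85% of all genes. The ranges overlapped for the 5 general neuronal markers (72.2 to 207 and 171 to 337). Those of the 6 feeder fibroblast markers also overlapped (8.72 to 26.0 and 5.21 to 12.7), and neither list had a call. The 6 endothelial markers, of interest because arteries express *Efnb2*, summed to 3.90 to 5.45 FPKM in treated and 1.53 to 3.97 in untreated libraries. These ranges overlapped slightly, and 0 of the 5 endothelial markers tested passed. In each group only 1 of the 6 had a mean of at least 1 FPKM (*Pecam1*), and *Cdh5*, a defining gene of endothelium, ran from 0.29 to 1.19 and from 0 to 0.28. Their part in the *Efnb2* and *Efnb3* values was not tested. Of the pathway lists, the adaptor *Grb10* fell by 0.82 (SE 0.19, adjusted p = 0.0498) among forward signalling genes, and *Stat3* rose by 0.95 (SE 0.18, adjusted p = 0.0288) among the reverse signalling genes. In the EphA class 1 of 13 tested genes fell, *Epha3* by 3.16 (SE 0.57, adjusted p = 0.0253), which was picked after its value was seen, and the cleavage list had no call. None of the 4 lists had a call at D5 or D6 without the replicate block.

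At D5 no difference between treated and untreated libraries was detected for any member at this depth and spread. The test called 0 of 8, also at an unadjusted p under 0.05 and with DESeq2, against 0.00613% of all genes. At an unadjusted p under 0.05 there were 767 of 16309 genes. *Efnb2* held 8.81, 13.01 and 13.06 FPKM in treated and 8.49, 12.10 and 12.03 in untreated replicates, with a log2 fold change of 0.05 (SE 0.19). *Efnb3* held 7.69, 13.58 and 10.29 against 8.0, 8.83 and 7.57 (log2 fold change 0.32, SE 0.22, adjusted p = 0.976). Treated D5 replicate 2 stood apart, with no count for 39381 genes where each of the other 20 libraries lacked 29339 to 32805, and held the highest treated *Efnb3*, *Efnb1* (11.09 FPKM) and *Ephb3* (6.48 FPKM). Without it the log2 fold change was 0.11 for *Efnb3* and -0.025 for *Efnb2*, and 0 of 8 members passed.

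At D6 the treated libraries were close to the untreated ones. *Ephb1* held 5.79, 5.92 and 5.23 FPKM in treated against 5.50, 7.13 and 6.26 in untreated replicates, and *Ephb6* 8.32, 9.18 and 7.17 against 8.30, 9.09 and 8.45. *Efnb2* was the one member whose groups did not overlap, at 8.54, 9.75 and 9.92 in treated and 9.94, 11.03 and 12.03 in untreated replicates, though the gap between the nearest libraries was only 0.02 FPKM. How many of all genes lay apart in this way at D6 was not counted. After TMM scaling over all 21 libraries *Efnb2* held 64.0, 67.3 and 66.7 CPM in treated and 75.3, 77.4 and 81.8 CPM in untreated replicates. Its log2 fold change was -0.23 (SE 0.09, adjusted p = 1.00). The test, which did not pair libraries by replicate number, called 0 of 8 members (1, *Efnb2*, at an unadjusted p under 0.05, and 0 with DESeq2) and 0% of all genes. At an unadjusted p under 0.05 there were 222 of 16301 genes. Same-numbered D6 libraries deviated together, and with the replicate number as a block *Efnb2* fell by 0.23 (SE 0.06, adjusted p = 0.0392), the only member of 8 past the threshold, against 1.28% of all genes that fell. In the blocked fit 3 members had an unadjusted p under 0.05, against 1768 of 16301 genes. Besides *Efnb2* they were *Efnb1* (log2 fold change -0.15, SE 0.07, adjusted p = 0.447), lower in all 3 pairs at 8.55, 9.44 and 10.36 against 9.71, 10.35 and 11.27 FPKM, and *Ephb1* (-0.16, SE 0.08, adjusted p = 0.454). The blocked *Efnb2* call was lost when any 1 of the 3 numbers was left out (adjusted p of 0.113 to 0.236). *Efnb3* held 17.92, 15.50 and 14.04 against 17.26, 15.41 and 13.06 (log2 fold change 0.04, SE 0.17).

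**Figure D5:**
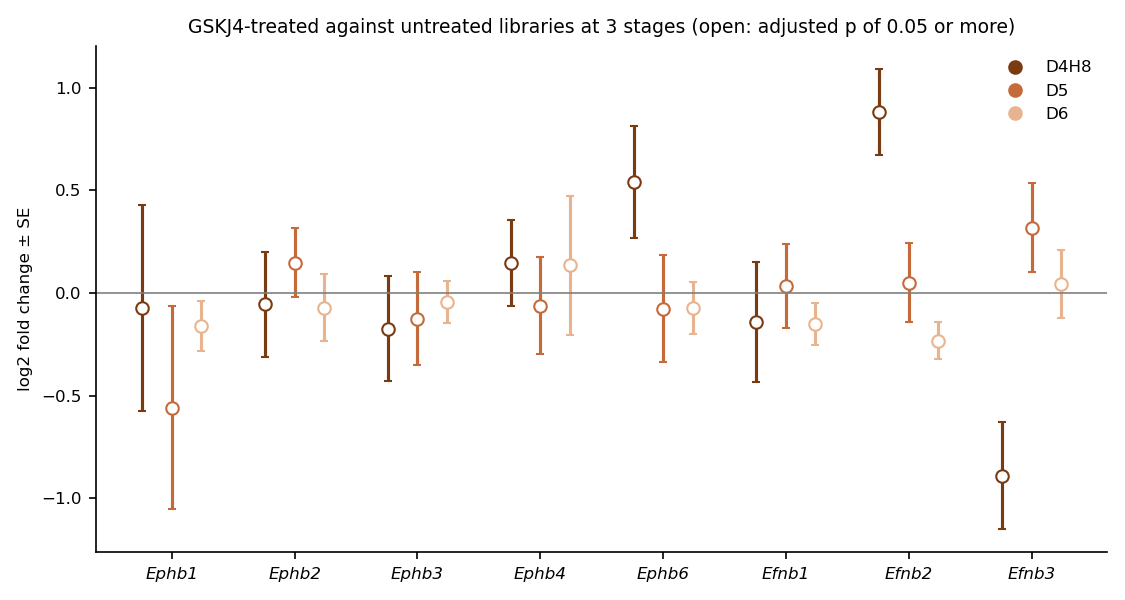
Log2 fold change of each member (vertical axis, with SE) in GSKJ4-treated against untreated libraries at D4H8, D5 and D6, each from 3 against 3 libraries. All circles are open, since none passed an adjusted p of 0.05 without the replicate block. *Efnb2* at 0.88 and *Efnb3* at -0.89, both at D4H8, lie farthest from 0.

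Whether the effect of GSKJ4 differed between stages was tested directly on 18 libraries. For *Efnb2* the D6 effect was lower than the D4H8 effect by 1.11 on the log2 scale (difference -1.11, SE 0.26, adjusted p = 0.0596), and the D5 effect differed by -0.85 (SE 0.26, adjusted p = 0.255). For *Efnb3* the difference was 1.199 at D5 (SE 0.34, adjusted p = 0.188) and 0.95 at D6 (SE 0.34, adjusted p = 0.211). None of the 8 members passed, against 0.249% of all genes for D5 and 0.735% for D6 relative to D4H8, and 0% between D6 and D5. The counts at an unadjusted p under 0.05 were 2, 2 and 0, against 1817, 2477 and 358 of 18103 genes. DESeq2 called *Efnb2* between D6 and D4H8 (adjusted p = 0.00460). Over 19 alternatives the adjusted p of that difference ran from 0.00460 to 0.161 and passed in 8. These were all the alternatives that kept every library and, of the fits with a library left out, only that without treated D4H8 replicate 3 (0.0234).

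The members were last set against other genes by Pearson correlation of log2 CPM over the 21 libraries, as a description, since libraries of 1 group share their stage. Among themselves, *Ephb1* and *Ephb6* were most alike (r = 0.913), *Ephb4* ran opposite to *Ephb6* (r = -0.785) and *Ephb1* (r = -0.752), and *Efnb2* had |r| of at most 0.473 with any other member. *Ephb4* was closest to the receptor tyrosine kinase *Erbb2* (0.979), *Notch3* (0.975) and the Wnt receptor *Fzd2* (0.974). *Ephb6* was closest to the adaptor *Dok4* (0.973), the synaptic calsyntenin *Clstn3* (0.973) and *Tspyl3* (0.970). *Ephb1* was closest to *Arhgef40* (0.966), the actin-binding *Ablim1* (0.962) and *Ly6h* (0.961), and *Ephb2* to *Srebf2* (0.962), *Tet3* (0.957) and *Mrs2* (0.954). *Efnb2* had weaker neighbours, the focal adhesion genes *Tns2* (0.906) and *Pxn* (0.870) and *Pdcd6ip* (0.864), as had *Efnb3* with *Slc35f1* (0.864), *Dtx4* (0.859) and *Zfp503* (0.857). By rank (Spearman) *Tns2*, *Pxn* and *Pdcd6ip* reached only 0.716, 0.639 and 0.532 with *Efnb2*. Like *Efnb2*, they had their highest group mean in treated D4H8 libraries (3.62, 10.5 and 29.6 FPKM, against 1.15, 6.94 and 16.4 in untreated D4H8 libraries). *Ephb3* and *Efnb1* spanned less than 1 log2 unit between groups and were not ranked.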

How the data were processed

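RNA had been extracted with TRIzol from whole cultures, enriched on poly-T beads and sequenced. The authors trimmed reads with Fastp, aligned them to mm10 (GRCm38) with HISAT2 and deposited HTSeq counts per gene, with FPKM that the authors derived from those counts and gene length. The strand setting of the counting and the GSKJ4 dose used for RNA-seq were not given in the sources used here. Deposited FPKM, which a recalculation matched within 0.005, are quoted as levels. Tests were run on the deposited counts with edgeR 4.0.16 in R 4.3.3 (TMM scaling, filterByExpr with a minimum count of 10, quasi-likelihood test, Benjamini-Hochberg adjustment over all genes tested, threshold 0.05, two-sided). Stage contrasts used the 12 untreated libraries (17519 genes tested), each GSKJ4 contrast its own 6 libraries (16269, 16309 and 16301 genes at D4H8, D5 and D6), and differences between stages in the GSKJ4 effect 18 libraries (18103 genes). Code was tested on simulated data. DESeq2 1.42.0, other scalings and filters, a replicate block, a joint fit and the removal of each library were the alternatives. Deviations from group means of same-numbered libraries correlated at 0.916, 0.670 and 0.807 (replicates 1, 2 and 3) between treated and untreated D6 groups. The D6 test had no block even so, and the fit with replicate numbers as pairs is given beside it as an alternative. The same correlations were 0.483, 0.0835 and 0.293 at D4H8 and 0.338, 0.0882 and 0.406 at D5. Between neighbouring untreated stages they ran from 0.139 to 0.462. All libraries differed by more than counting noise.

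The 8 members, the pathway lists and the tests were chosen with earlier results of these data known. Up to 3 genes per direction were named from each list for D6 against D4 and up to 2 for GSKJ4, by largest fold change among calls with a mean of at least 100 counts. 1 gene that this rule chose is not reported here. Likeness was ranked for members whose group means spanned at least 1 log2 unit, over 11121 genes. The sources call the replicates biological and say no more of the cultures they came from, so p-values measure the spread between these libraries, which may be partly technical. Positions come from the GENCODE annotation of GRCm38, and promoter windows from RefSeq.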

Additional observations from a re-analysis of the deposited data

Results flagged for a closer look

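*Efnb2* stood on opposite sides of the untreated libraries at 2 stages of GSKJ4 treatment, although neither effect nor their difference passed in the edgeR tests that the report rests on. *Efnb2* was flagged for that separation itself, so the separation lends no further support. The share of all genes that separate in this way was not counted. All 3 treated libraries lay above all 3 untreated ones at D4H8 (16.55 to 27.16 against 10.29 to 11.18 FPKM, adjusted p = 0.0510 by edgeR over all genes) and all 3 lay below at D6 (8.54 to 9.92 against 9.94 to 12.03 FPKM, adjusted p = 1.00). With the replicate block the D6 value had an adjusted p of 0.0392, which was lost when any 1 replicate number was left out (0.113 to 0.236). The difference between the D6 and D4H8 effects was -1.11 on the log2 scale (SE 0.26, adjusted p = 0.0596), and the adjusted p was under 0.05 in 8 of 19 alternatives (range 0.00460 to 0.161).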

How the results depend on the processing

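Of 407 refits of the members' fold changes, 353 kept direction and side of the threshold, 22 lost a call, 22 gained one and 10 changed sign, and the causes were not tested. The sign changes were for *Ephb3* from D4 to D6 (0.01 in the test reported, -0.15 with upper-quartile scaling, -0.029 in 1 fit over all 21 libraries, -0.11 to 0.13 with libraries left out), *Efnb2* with GSKJ4 at D5 (-0.087 to 0.19 with libraries left out) and *Efnb3* at D6 (-0.089 to 0.18). Upper-quartile scaling also moved the median of all genes, to -0.19 for D6 against D4 and to -0.10 for D6 against D5. The number of members past the threshold at the D4 to D4H8 step went from 0 to 1 with no filter, and at the D4H8 to D5 step from 3 to 1 in the 21-library fit and to between 1 and 3 with libraries left out. For GSKJ4 at D4H8 it went from 0 to 2 with DESeq2, no filter, the replicate block and the 21-library fit, to 1 with upper-quartile scaling and with at least 10 counts in every library, and to between 0 and 1 with libraries left out. At D6 the replicate block gave 1, and leaving out libraries, with or without the block, 0. For the difference between D5 and D4H8 it went from 0 to 1 with no filter. For that between D6 and D4H8 it went from 0 to 1 with either other scaling (upper-quartile or RLE), either other filter, the block, the 21-library fit and DESeq2, and to between 0 and 1 with libraries left out. The block changed no call of a member at the stage steps or in the net change.

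Counts over all genes moved more. The D4 to D4H8 step gave 767 calls, 1319 with no filter, 422 in the 21-library fit and 350 to 743 with libraries left out, and the D4H8 to D5 step 4861 and, in the 21-library fit, 3218. GSKJ4 at D4H8 gave 644, against 1974 with DESeq2, 2287 with no filter, 2274 with the block, 2048 in the 21-library fit and 43 to 1746 with libraries left out. At D5 it gave 1, against 69, 128, 4 and 9 in the same order and 1 to 6 with libraries left out. At D6 it gave 0, against 1 with DESeq2, 257 with the block, 0 in each of the 6 fits with 1 library left out, and 171 to 406 where the block was kept and a replicate number left out, which was chosen after seeing the data. The difference D5 against D4H8 gave 45, against 236 with DESeq2, 351 with no filter, 185 with the block and 16 to 172 with libraries left out. D6 against D5 gave 0, against 1 with DESeq2, 13 with no filter and 0 to 1 with libraries left out. D6 against D4H8 gave 133, against 580 with DESeq2, 626 with no filter, 208 with at least 10 counts, 491 with the block and 40 to 284 with libraries left out.

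Scaling FPKM by TMM left 55 of 56 group means within 1 SD. Of the 12 comparisons of nearest genes under other measures of likeness, 10 changed, so those names depend on the measure. *Ephb1* rested on 27 to 155 counts per library before D6, and 3 libraries per group limit what small differences could be seen.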
